A study of Mus musculus with 16 samples.

Results

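The crypt stem cell and Wnt target genes described here are 10 genes that mark the base of the intestinal crypt or answer to Wnt signalling: Lgr5, Ascl2, Smoc2, Lrig1, Sox9, Cd44, Axin2, Ephb2, Rnf43 and Znrf3. They were chosen by name, with earlier results of these data known. Each was read from the probe set that carried its symbol, the brightest one where a gene had several. Of the 10 genes, 8 had a probe set, 1 each, among 18850 genes with a symbol, and all 8 were bright enough to be tested. Ephb2 and Rnf43 were not named on any probe set and were not analysed here. RNA came from mouse colon organoids, cultured cysts of colon epithelium, and was hybridised to 16 Affymetrix arrays in 4 groups of 4. The groups were mutant organoids given recombinant mouse tumour necrosis factor alpha (TNFa, an inflammatory cytokine) at 50 ng/ml for 12 h, mutant organoids without TNFa, wild-type (WT) organoids with the same TNFa dose, and WT organoids without it. All groups were grown in ENR, a medium that supplies EGF, Noggin and R-spondin, so R-spondin was given to all of them. The mutant carries altered alleles of Atf2 and Atf7, a pair of related transcription factors, but its labels contradict each other on which gene was knocked out and which was floxed, and none states that a floxed allele was recombined.

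Wnt ligands bind Frizzled and LRP receptors and stop a scaffold of Axin, APC and GSK3 from destroying beta-catenin, which then acts with TCF factors on target genes. Znrf3 and Rnf43, both ubiquitin ligases, remove Frizzled from the cell surface, and R-spondins, bound by Lgr receptors, hold these ligases back, so that Axin2, Znrf3 and Rnf43 are at once targets and brakes of the pathway. In the colon this signal is strongest at the crypt base, where Lgr5-positive stem cells sit.

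Upstream sequences from RefSeq (build GRCm38.p6) were at hand for 6 of the 10 genes. Those of Ascl2 and Cd44 are shown because, of the 8 genes, these had the largest TNFa differences on average over genotypes. Each line holds the 250 bases before the annotated start site, 5′ to 3′ on the gene's strand (minus for both), after its position. Capitals mark a GC box (GGGCGG) or a CCAAT box (CCAAT) on either strand.
Ascl2, chr7:142969265-142969514: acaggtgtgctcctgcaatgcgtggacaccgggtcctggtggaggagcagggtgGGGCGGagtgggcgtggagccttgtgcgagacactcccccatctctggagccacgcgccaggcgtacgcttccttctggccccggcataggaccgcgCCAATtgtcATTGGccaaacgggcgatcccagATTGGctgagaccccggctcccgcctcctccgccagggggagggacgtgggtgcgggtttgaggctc
Cd44, chr2:102901666-102901915: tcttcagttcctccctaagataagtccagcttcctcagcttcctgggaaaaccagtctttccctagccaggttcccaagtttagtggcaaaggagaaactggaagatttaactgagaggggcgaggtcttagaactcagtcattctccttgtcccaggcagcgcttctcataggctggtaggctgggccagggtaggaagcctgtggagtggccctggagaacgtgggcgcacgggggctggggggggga
The Ascl2 window holds 1 GC box and 3 CCAAT boxes, whereas the Cd44 window holds neither. Over the same length before a start site, 32.7% of 32851 RefSeq windows hold a GC box and 33.8% a CCAAT box. Motifs of signal-dependent factors were searched on both strands as well. These were TCF (CTTTGAA or CTTTGAT or CTTTGTA or CTTTGTT, in 14.8% of windows), AP-1 (TGANTCA, 6.75%), the core of the CRE site of ATF and CREB factors (TGACG, 17.8%), the full CRE, in which TCA follows that core (1.55%), and NF-kB by its consensus (3.9%). None of these letter strings, and no TATA box (TATAAA, 12.4%), occurs in the windows of Ascl2, Cd44, Lrig1 or Axin2, which were measured, or of Rnf43. The window of Ephb2 holds 1 NF-kB match, and the level of Ephb2 was not analysed here.

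Values are the deposited log2 signals, where a difference of 1 is a doubling. Differences were fitted with limma to all 16 arrays, and a gene was called when its p, adjusted by Benjamini-Hochberg over 11766 tested genes, was under 0.05. Array medians ran from 7.02 to 7.11 log2, and 40% of probe sets on each array lay below 6.40 to 6.56 log2, the range treated as dim. Array 2 of WT + TNFa stood apart, correlating on average at 0.977 with the rest of its group, where those 3 reached 0.986 to 0.988, so its effect is given where leaving it out changes a result. No label says whether the 4 samples of a group came from separate animals or cultures, so a p-value here speaks only of the spread among these samples, and that spread may be technical. Atf2 signal was 10.12 and 10.15 log2 on average in mutant organoids with and without TNFa, against 10.18 and 10.16 in WT. That checks no label, because the part of Atf2 that its probe set reads was not given, and Atf7 was not named on any probe set. All 8 colon epithelium markers measured (such as Epcam, Cdh1 and Vil1) were above the dim range on all arrays. Of 9 fibroblast and smooth muscle markers, Col3a1, Dcn, Lum, Acta2 and Des were above it on no array and Col1a1, Vim and Myh11 on all 16, while all 5 endothelial markers were above it on no array. The NF-kB feedback genes Nfkbia, Tnfaip3, Nfkb2, Birc3, Ccl20 and Relb, which answer to TNFa directly, rose in both genotypes, by a median of 1.35 log2 in mutant and 1.18 log2 in WT.

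**Figure D1:**
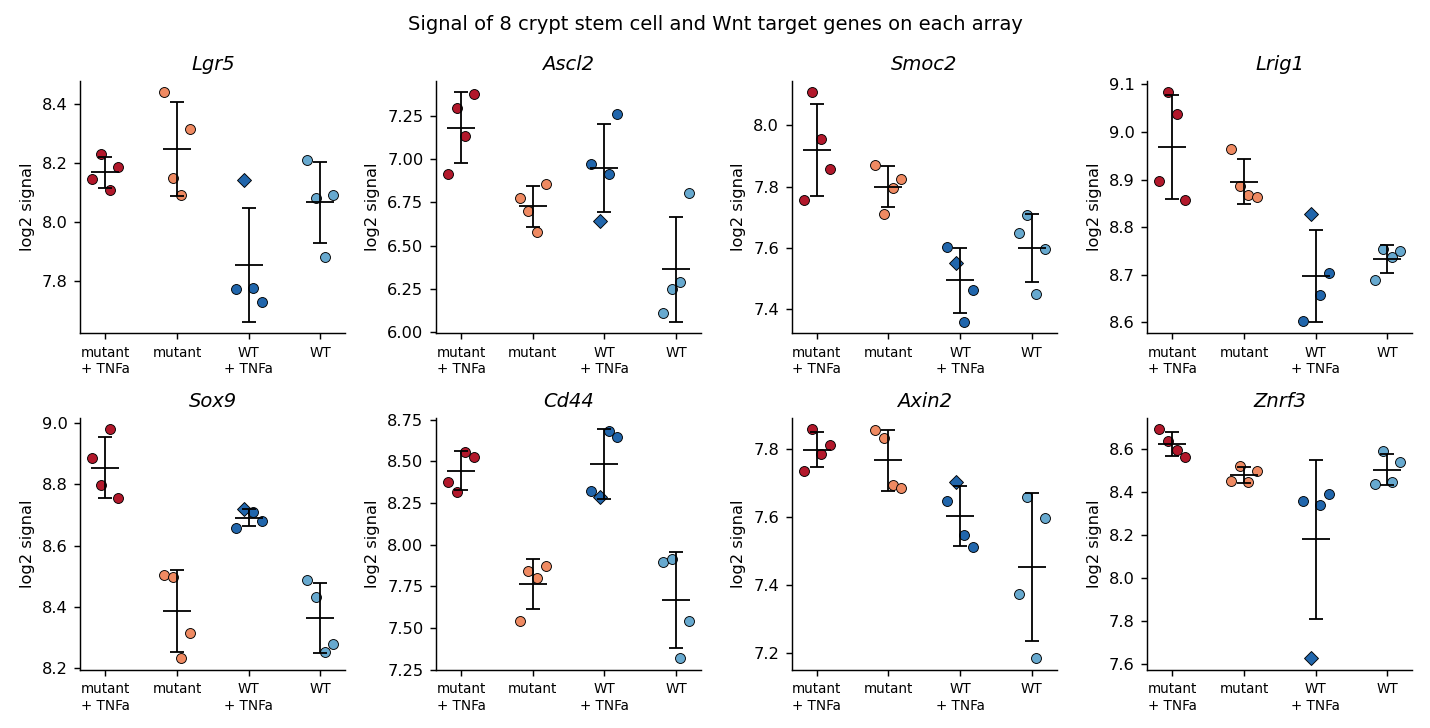
Log2 signal (vertical axis) of the 8 measured genes on each of 16 arrays, by group; the line and bar are the mean and SD of 4 arrays, and diamonds mark array 2 of WT + TNFa. Cd44 and Sox9 sit higher in the groups with TNFa, Smoc2 and Lrig1 higher in the mutant groups, and the diamond lies below all other arrays for Znrf3.

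The first question was how TNFa changed these genes in each genotype. Cd44, the hyaluronan receptor and a Wnt target of the crypt, Sox9, a transcription factor of stem and progenitor cells, and Ascl2, the transcription factor that maintains crypt stem cells, stood higher with TNFa, while the stem cell receptor Lgr5, Smoc2, Lrig1 and the feedback genes Axin2 and Znrf3 were not called in either genotype. In mutant organoids 2 of 8 genes rose and 0 fell in limma, where 3.51% of all tested genes rose and 2.47% fell. At an unadjusted p under 0.05 3 of the 8 stood higher and 0 lower, where 15.7% of all tested genes had such a p. In WT organoids 3 of 8 rose and 0 fell (2, Lgr5 and Znrf3, at an unadjusted p under 0.05), where 5.03% of all tested genes rose, 5.75% fell and 23.5% had such a p in either direction. Groups that did not overlap, with TNFa higher, were found for 4 of the 8 in mutant (7.88% of all tested genes) and 2 of the 8 in WT (6.82%).

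Cd44 had the largest response. In mutant + TNFa organoids its signal was 8.38, 8.32, 8.55 and 8.53 log2, against 7.54, 7.84, 7.80 and 7.87 in mutant organoids. In WT + TNFa organoids it was 8.32, 8.29, 8.68 and 8.65 log2, against 7.90, 7.91, 7.32 and 7.54 in WT. Every array with TNFa was above every array without it, and the groups with TNFa overlapped each other, as did those without it. Cd44 rose 1.60-fold in mutant (0.68 log2, SE 0.13, adjusted p = 0.00252) and 1.76-fold in WT (0.82 log2, SE 0.13, adjusted p = 0.00034, n = 4 per group in limma). The difference between these effects, mutant minus WT, was -0.14 log2 (95% interval -0.52 to 0.24, adjusted p = 0.905).

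Sox9 moved less but with less spread. In mutant + TNFa organoids it read 8.88, 8.80, 8.98 and 8.75 log2, against 8.50, 8.50, 8.23 and 8.32 in mutant organoids. In WT + TNFa organoids it read 8.66, 8.72, 8.71 and 8.68 log2, against 8.49, 8.43, 8.26 and 8.28 in WT. Again no array without TNFa reached the lowest with it. The rise was 1.38-fold in mutant (0.47 log2, SE 0.074, limma adjusted p = 0.000576) and 1.26-fold in WT (0.33 log2, SE 0.074, adjusted p = 0.00704). The effects differed by 0.14 log2 (95% interval -0.081 to 0.36, adjusted p = 0.828).

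Ascl2 was the dimmest of the 8 genes. Mutant + TNFa organoids had 6.92, 7.30, 7.13 and 7.38 log2, against 6.77, 6.70, 6.58 and 6.86 in mutant organoids. WT + TNFa organoids had 6.97, 6.65, 6.91 and 7.26 log2, against 6.11, 6.25, 6.29 and 6.80 in WT. Only 1 of the 4 untreated WT arrays was above the dim range, so the fold change in WT is approximate, and array 4 of WT overlapped the treated group. Ascl2 rose 1.50-fold in WT (0.58 log2, SE 0.14, limma adjusted p = 0.0132). Without array 1 of WT the call was lost, with a difference of 0.50 log2 and adjusted p = 0.0504, and with only the WT arrays in the fit adjusted p was 0.0567. In mutant the groups did not overlap, but the difference of 0.45 log2 (SE 0.14, adjusted p = 0.0812) was not called. It was called without array 4 of WT (adjusted p = 0.0306) or array 2 of WT + TNFa (0.0492) and with only the mutant arrays in the fit (0.0208), which changed the estimate of the spread and not the difference. The effects in mutant and WT differed by -0.13 log2 (95% interval -0.56 to 0.30, adjusted p = 0.92).

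For the mean of the TNFa effects in both genotypes, Cd44 (0.75 log2, adjusted p = 1.28e-05), Sox9 (0.40 log2, adjusted p = 3.35e-05) and Ascl2 (0.52 log2, adjusted p = 0.00159) were called by limma, 3 of 8 where 7.79% of all tested genes rose and 7.22% fell. The 8 arrays with TNFa did not overlap the 8 without it for Cd44 and Sox9, as for 2.37% of tested genes that stood higher. The other 5 genes were not called. Lrig1, a brake on ErbB receptors in stem cells, differed by 0.019 log2 (95% interval -0.074 to 0.11), and Smoc2, a secreted matrix protein of the Lgr5 stem cell signature, by 0.0060 log2 (-0.11 to 0.12). Axin2, the scaffold protein that is among the most general Wnt targets, differed by 0.089 log2 (-0.041 to 0.22).

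Lgr5, the R-spondin receptor that defines crypt base stem cells, tended the other way. It read 7.77, 8.14, 7.78 and 7.73 log2 in WT + TNFa organoids, against 8.21, 8.08, 7.88 and 8.09 in WT. Array 2 of WT + TNFa lay within the untreated range and the other 3 below all untreated arrays. The difference in WT was -0.21 log2 (SE 0.096, 95% interval -0.41 to -0.0091, limma adjusted p = 0.189), and without that array it was -0.31 log2 and called (adjusted p = 0.0228). In mutant the difference was -0.080 log2 (95% interval -0.28 to 0.12, adjusted p = 0.814), and averaged over genotypes it was -0.15 log2 (adjusted p = 0.184, or 0.0255 and -0.19 log2 without array 2 of WT + TNFa).

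**Figure D2:**
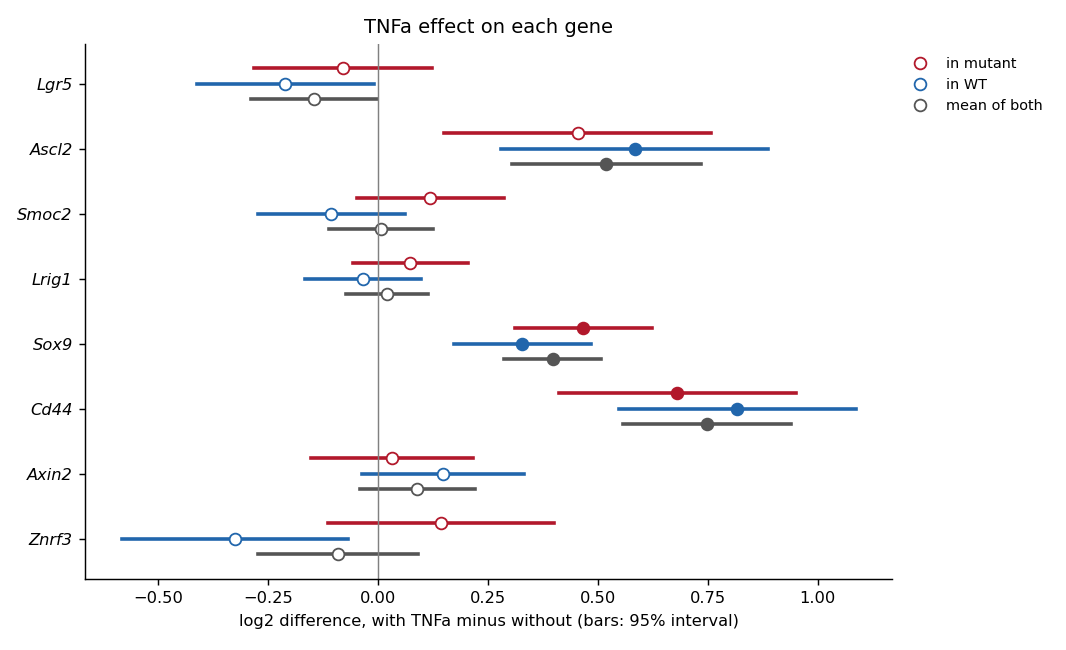
TNFa effect on each gene as a log2 difference, with TNFa minus without (horizontal axis), in mutant, in WT and averaged; bars are 95% intervals and filled points were called. Cd44 and Sox9 are filled in both genotypes, Ascl2 in WT and in the average, and the points of Znrf3 lie on opposite sides of 0.

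The second question was how mutant organoids differed from WT. Smoc2, Lrig1, Axin2 and Lgr5 were higher in mutant when the comparisons with and without TNFa were averaged, by 1.16-fold to 1.24-fold. In this average 4 of 8 genes rose, none fell and all 8 had a difference above 0. Over all tested genes 2.52% rose, 3.36% fell and 49.1% had a difference above 0. The median of the 8 was 0.23 log2, that of all tested genes -0.0019 log2. Taken singly, the comparison with TNFa called Smoc2 and Lrig1 (2 of 8, where 1.56% of all tested genes rose and 1.13% fell), and 6 of the 8 had an unadjusted p under 0.05, as had 13.6% of all tested genes. The comparison without TNFa called 0 of 8 by limma, where 1% of all tested genes rose and 1.48% fell, and 4 of the 8 had an unadjusted p under 0.05, as had 13.3% of all tested genes. As these are bulk samples, more cells of a type and more RNA of a gene per cell cannot be told apart.

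Smoc2 read 7.76, 8.11, 7.95 and 7.86 log2 in mutant + TNFa organoids, against 7.60, 7.55, 7.36 and 7.46 in WT + TNFa. Without TNFa it read 7.87, 7.71, 7.80 and 7.83 log2 in mutant organoids, against 7.65, 7.71, 7.45 and 7.60 in WT. All 8 mutant arrays were above all 8 WT arrays, though narrowly, the lowest mutant array at 7.711 and the highest WT array at 7.708 log2. The difference was 0.43 log2 with TNFa (SE 0.079, limma adjusted p = 0.00568), 0.20 log2 without it (SE 0.079, adjusted p = 0.26) and 0.31 log2 on average (SE 0.056, adjusted p = 0.0021). The TNFa effects in mutant and WT differed by 0.23 log2 (95% interval -0.011 to 0.46, adjusted p = 0.704).

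Lrig1 had the smallest spread within groups. In mutant + TNFa organoids it read 8.90, 9.08, 9.04 and 8.86 log2, against 8.60, 8.83, 8.66 and 8.70 in WT + TNFa. In mutant organoids without TNFa it read 8.96, 8.89, 8.87 and 8.86 log2, against 8.69, 8.75, 8.74 and 8.75 in WT. Here too the 8 mutant arrays stood above the 8 WT arrays, the lowest mutant at 8.857 and the highest WT at 8.828 log2. Such separation of 8 from 8, with the mutant higher, was seen for Smoc2 and Lrig1 among the 8 genes and for 0.544% of all tested genes. The difference was 0.27 log2 with TNFa (SE 0.062, limma adjusted p = 0.0251), 0.16 log2 without it (adjusted p = 0.241) and 0.22 log2 on average (SE 0.044, adjusted p = 0.00582). The call with TNFa was lost without array 1 or 3 of WT + TNFa (adjusted p = 0.0754 and 0.0734), without array 2 or 3 of mutant + TNFa (0.0996 and 0.0837), with only the groups compared in the fit (0.132) and without the filter on dim genes (0.0588). The averaged calls of Smoc2, Lrig1 and Axin2 held under all 24 alternatives tried.

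Axin2 read 7.74, 7.86, 7.79 and 7.81 log2 in mutant + TNFa organoids, against 7.65, 7.70, 7.55 and 7.51 in WT + TNFa. Without TNFa it read 7.86, 7.83, 7.69 and 7.69 log2 in mutant organoids, against 7.38, 7.66, 7.18 and 7.60 in WT. Within each condition the mutant arrays were all above the WT arrays, and untreated WT was the most spread. The mutant was 0.20 log2 higher with TNFa (SE 0.087, limma adjusted p = 0.327), 0.31 log2 higher without it (SE 0.087, adjusted p = 0.0725) and 0.25 log2 higher on average (SE 0.062, adjusted p = 0.0189). When array 2 of WT was left out the untreated comparison was called, with 0.38 log2 and adjusted p = 0.0299.

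Lgr5 read 8.15, 8.23, 8.11 and 8.19 log2 in mutant + TNFa organoids, against the WT + TNFa values given above. In mutant organoids without TNFa it read 8.44, 8.15, 8.09 and 8.31 log2. Mutant and WT arrays overlapped in each condition. The difference was 0.31 log2 with TNFa (SE 0.096, limma adjusted p = 0.109), 0.18 log2 without it (adjusted p = 0.44) and 0.25 log2 on average (SE 0.068, adjusted p = 0.0393). The averaged call was lost without 12 of the 16 arrays in turn and without the filter on dim genes, with adjusted p up to 0.0836. Without array 2 of WT + TNFa it was 0.29 log2 with adjusted p = 0.00392, and the comparison with TNFa was then called as well (0.41 log2, adjusted p = 0.0123).

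The remaining genes were not called between genotypes. Ascl2 was higher in mutant by 0.23 log2 with TNFa and 0.36 log2 without it, 0.30 log2 on average (95% interval 0.083 to 0.51, limma adjusted p = 0.11), and the average was called without array 4 of WT (0.37 log2, adjusted p = 0.0196). Sox9 was 0.16 log2 higher with TNFa, where the groups did not overlap (adjusted p = 0.343), and 0.024 log2 higher without it. Cd44 differed by -0.041 log2 with TNFa and by 0.096 log2 without it (adjusted p = 0.928 and 0.823), both smaller than its TNFa effects. Groups that did not overlap, with the mutant higher, were found for 5 of 8 genes with TNFa (Smoc2, Lrig1, Sox9, Axin2 and Znrf3), where 4.27% of all tested genes showed this. Without TNFa they were found for 3 of 8 (Smoc2, Lrig1 and Axin2), against 3.46% of all tested genes.

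**Figure D3:**
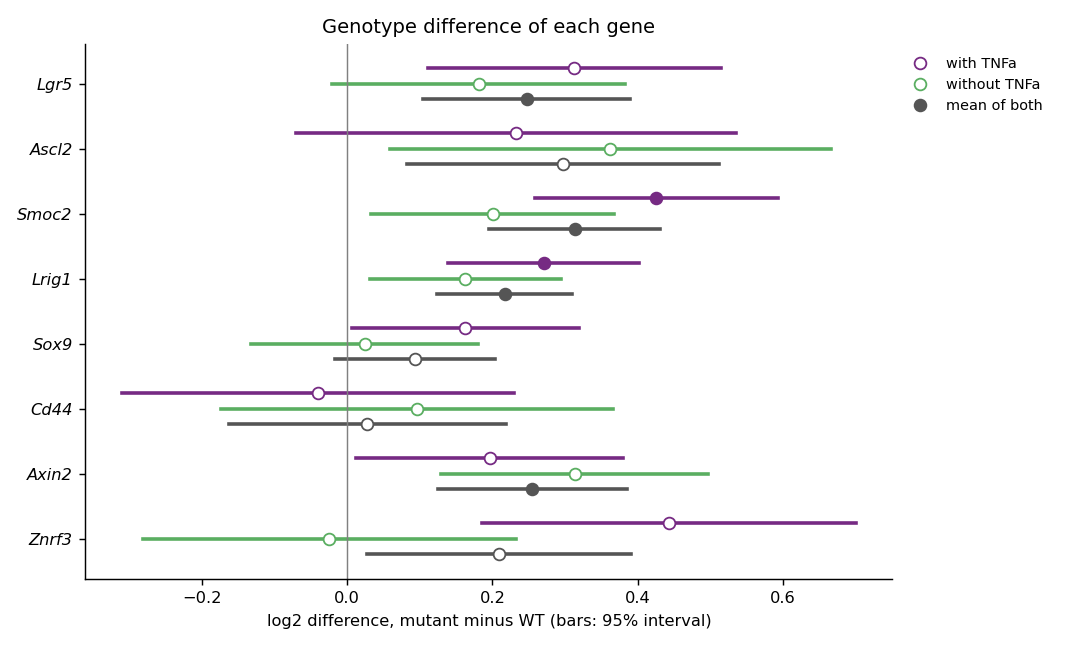
Genotype difference of each gene on the log2 scale, mutant minus WT (horizontal axis), with TNFa, without TNFa and averaged; bars are 95% intervals and filled points were called. Smoc2 and Lrig1 are filled with TNFa and in the average, Lgr5 and Axin2 in the average, and the averaged points of all 8 genes lie above 0.

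Znrf3, the ubiquitin ligase that clears Frizzled receptors, had TNFa effects of opposite sign in the genotypes, as had Smoc2 and Lrig1 with smaller ones. It read 8.69, 8.64, 8.60 and 8.56 log2 in mutant + TNFa organoids, against 8.45, 8.52, 8.45 and 8.50 in mutant organoids. It read 8.36, 7.62, 8.34 and 8.39 log2 in WT + TNFa organoids, against 8.44, 8.59, 8.45 and 8.54 in WT. All treated mutant arrays were above the untreated ones, and all treated WT arrays below the untreated ones, as for 7.34% of tested genes in WT. The TNFa effect was 0.14 log2 in mutant (SE 0.12, limma adjusted p = 0.686) and -0.33 log2 in WT (SE 0.12, adjusted p = 0.104). Their difference was 0.47 log2 (95% interval 0.10 to 0.83, unadjusted p = 0.0147, adjusted p = 0.561) and was not called, and without array 2 of WT + TNFa it was 0.28 log2 (adjusted p = 0.245). The difference of TNFa effects called none of the 8 genes, and 0.0085% of all tested genes were called. An unadjusted p under 0.05 was found for 1 of the 8 and for 7.27% of all tested genes. The size in WT rests on array 2 of WT + TNFa, since without it the effect in WT was -0.14 log2 (adjusted p = 0.105). With TNFa, Znrf3 was 0.44 log2 higher in mutant (SE 0.12, adjusted p = 0.0655), and this was called without array 2 of WT + TNFa (0.26 log2, adjusted p = 0.0134) or array 4 of the same group (0.51 log2, adjusted p = 0.0451).

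The order of the group means sorted the genes in a similar way. Cd44, Sox9 and Ascl2 had both groups with TNFa above both groups without it. For Sox9 the means were 8.85 ± 0.099 log2 in mutant + TNFa, 8.39 ± 0.13 in mutant, 8.69 ± 0.029 in WT + TNFa and 8.36 ± 0.11 in WT (SD, n = 4), and of neighbours in this order only the untreated groups overlapped. For Cd44 neighbours overlapped within the treated and within the untreated groups, and for Ascl2 every group overlapped the next. Smoc2 and Lrig1 had both mutant groups above both WT groups, with mutant + TNFa highest, and among neighbours only untreated mutant and untreated WT were separate. Axin2 had the same genotype order, with each group overlapping the next. Lgr5 averaged 8.17 ± 0.051 log2 in mutant + TNFa, 8.25 ± 0.16 in mutant, 7.86 ± 0.19 in WT + TNFa and 8.07 ± 0.14 in WT, and each group overlapped the next. For Znrf3 WT + TNFa was lowest and apart, and the other 3 groups overlapped their neighbours. The span from lowest to highest group mean ran from 0.27 log2 for Lrig1 to 0.82 log2 for Cd44 and Ascl2.

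Correlations over the 16 arrays describe the same sorting and are given without a test, since the arrays share groups and 1 normalization. Of the 28 pairs among the 8 genes 23 correlated above 0. Smoc2 and Lrig1 (r = 0.86) and Sox9 and Cd44 (r = 0.84) were the closest, whereas Lgr5 and Cd44 ran at r = -0.37. After the group means were taken away 16 of 28 pairs were above 0, with a median of 0.11. Smoc2 with Axin2 (r = 0.57) was then the highest and Lgr5 with Znrf3 (r = -0.64) the lowest. Among all tested genes the closest to Lgr5 over 16 arrays was Rtn4rl1 (r = 0.88, and 0.76 after removal of group means), which was also the closest to Smoc2 (0.88 and 0.69). The closest to Ascl2 was Zc3hav1 (0.92 and 0.79), to Lrig1 Robo1 (0.89 and 0.59), to Sox9 Far2 (0.96 and 0.85), to Cd44 Zfp429 (0.97 and 0.82), to Axin2 Fam32a (0.90 and 0.80) and to Znrf3 Klhl9 (0.93 and 0.95). Without array 2 of WT + TNFa, an alternative chosen after seeing the data, the values for Znrf3 changed most. Its correlation with Klhl9 was then 0.56 (0.52 after removal of group means) and that of Lgr5 with Znrf3 after removal of group means was -0.03, while 24 of 28 pairs were above 0 after that removal. Smoc2 with Lrig1 (0.88), Sox9 with Cd44 (0.84) and Lgr5 with Cd44 (-0.38) moved little.

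**Figure D4:**
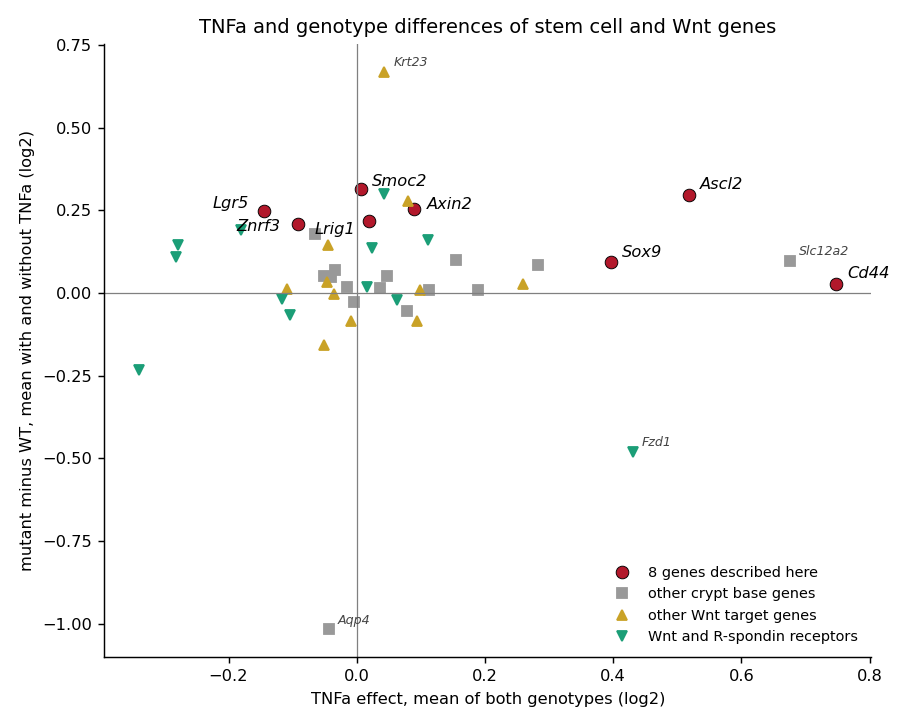
Averaged TNFa effect (horizontal axis, log2) against averaged genotype difference (vertical axis, log2, mutant minus WT), from the same 16 arrays, for the 8 genes and for other crypt base, Wnt target and receptor genes. Cd44 and Sox9 lie to the right near 0 on the vertical axis, Smoc2, Lrig1, Axin2 and Lgr5 lie above 0 near the vertical line, and Ascl2 lies to the right and above 0.

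Other genes of the crypt base and of the pathway were taken from lists to set these values in context. These lists too were chosen with earlier results of these data known. Of 15 further crypt base and stem cell genes tested, none was called lower with TNFa. Slc12a2, the sodium-potassium-chloride cotransporter of crypt cells, rose by 0.64 log2 with TNFa in mutant and by 0.71 log2 in WT (limma adjusted p = 1.32e-05 and 3.34e-06). The cell cycle kinase Cdk6 (0.33 log2, adjusted p = 0.0135) and the tetraspanin Tspan8 (0.22 log2, adjusted p = 0.00552) rose in WT. Cdk6 lost its call without array 4 of WT (adjusted p = 0.0533) or array 3 of WT + TNFa (0.0518) and with the replicate block (0.0763). With only the WT arrays in the fit, adjusted p was 0.0634 for Cdk6 and 0.0581 for Tspan8. Between genotypes the list was divided: Aqp4, a water channel, differed by -1.33 log2 in mutant without TNFa (8.55 ± 0.39 log2 in mutant, against 9.88 ± 0.13 in WT, adjusted p = 0.000404), while Hopx, a marker of slowly cycling crypt cells, was higher by 0.26 log2 (adjusted p = 0.0382, lost without 9 of 16 arrays in turn, up to 0.135). With TNFa Aqp4 read 8.82 ± 0.043 log2 in mutant and 9.52 ± 0.45 in WT. Those groups overlapped, and the difference was not called.

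Of 11 further Wnt and beta-catenin targets tested, 1 was called with TNFa in each genotype. Fermt1, which encodes kindlin-1, rose by 0.25 log2 in mutant (limma adjusted p = 0.00392) and 0.27 log2 in WT (adjusted p = 0.00181). Between genotypes Krt23, a keratin, was higher in mutant by 0.77 log2 with TNFa (adjusted p = 0.00175) and 0.57 log2 without it (adjusted p = 0.0164). The untreated call was lost when array 1 or 2 of WT or array 2 of mutant was left out (adjusted p up to 0.0673). Ephb3, the partner of Ephb2 in sorting crypt cells, was 0.28 log2 higher in mutant on average (adjusted p = 0.0492), a call lost without 13 of 16 arrays in turn. The median genotype difference of these 11 was 0.013 log2, against 0.23 log2 for the 8 genes.

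Upstream parts of the pathway were read next. In limma 0 of 8 tested Wnt ligands, R-spondins and their processing genes and 0 of 15 tested destruction complex and relay genes were called in any of the 7 comparisons. At an unadjusted p under 0.05 these were 0 to 1 of the ligands and 1 to 5 of the relay genes. The 5 were found for TNFa averaged over genotypes, 4 of them higher and 1 lower. In the 4 single comparisons 13.3 to 23.5% of all tested genes had such a p. For the average no such share is given, so the 5 relay genes cannot be judged against these percentages. Of 12 receptors tested, Lgr4, which binds R-spondin as Lgr5 does, fell with TNFa by 0.27 log2 in mutant (limma adjusted p = 0.0172) and by 0.29 log2 in WT (adjusted p = 0.00758). In mutant the call was lost without array 1 of mutant + TNFa (adjusted p = 0.0754) and with the replicate block (0.0587), and in WT with only the WT arrays in the fit (0.0579). Fzd5, a Frizzled receptor of the intestinal epithelium, fell by 0.37 log2 in WT (adjusted p = 0.00592). Fzd8 was called lower with TNFa in WT as well, which made 3 of 12 receptors, where 5.75% of all tested genes fell. It was also called lower in mutant than in WT without TNFa. Only on the untreated WT arrays was Fzd8 above the dim range, so both calls set a measured level against a dim one. Fzd1 did the opposite and rose with TNFa by 0.59 log2 in mutant (adjusted p = 3.36e-05) and by 0.27 log2 in WT (adjusted p = 0.0208, lost without 4 of 16 arrays in turn, up to 0.0715, and with only the WT arrays in the fit, 0.117). Fzd1 was also lower in mutant than in WT, by 0.32 log2 with TNFa (adjusted p = 0.0213, lost without 5 of 16 arrays in turn) and by 0.64 log2 without it (adjusted p = 5.03e-05). Fzd7 was 0.30 log2 higher in mutant on average (adjusted p = 0.0184).

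Of 11 TCF factors and cofactors tested, 3 Groucho family corepressors were called. Tle4 was 0.53 log2 higher (limma adjusted p = 0.0104) and Tle1 0.40 log2 lower (adjusted p = 0.0101) in mutant than in WT without TNFa, and Tle3 rose by 0.38 log2 with TNFa in mutant (adjusted p = 0.00137). Of 9 ephrins and Eph receptors tested, Efna1 fell with TNFa by 0.29 log2 in mutant (adjusted p = 0.00765) and 0.40 log2 in WT (adjusted p = 0.000328). In the Notch list Rbpj, the DNA-binding partner of Notch, rose by 0.48 log2 with TNFa in mutant (adjusted p = 0.00125), 1 of 11 tested genes. Of 3 secreted Wnt antagonists and their receptors tested, Kremen2 was 0.29 log2 higher in mutant on average, a call lost without 10 of 16 arrays in turn (adjusted p up to 0.0892).

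**Figure D5:**
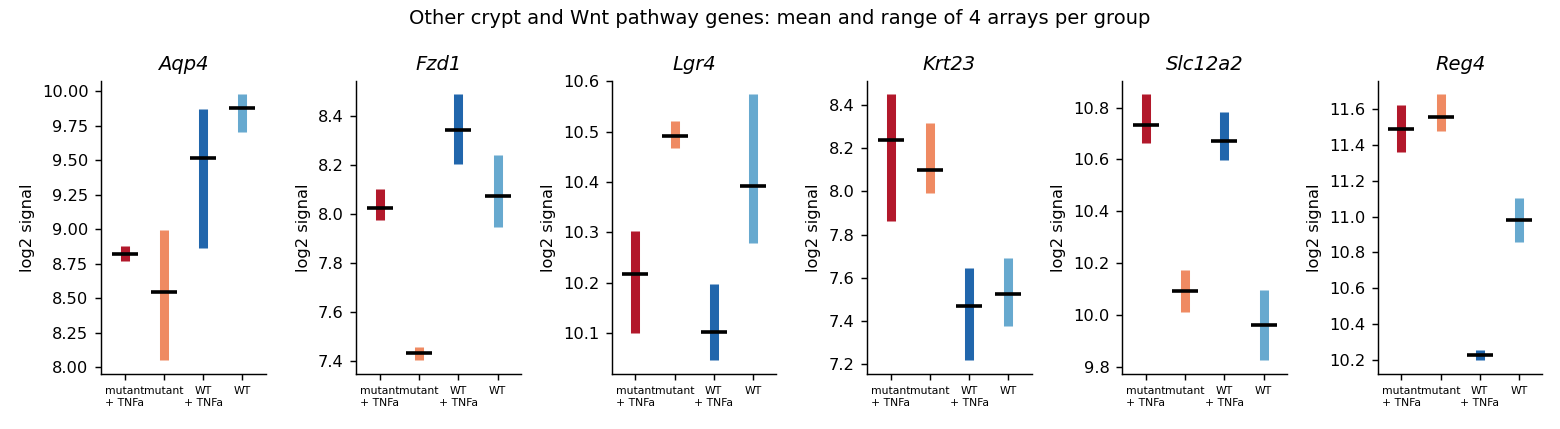
Log2 signal (vertical axis) of 6 other crypt and pathway genes, with the range of 4 arrays as a bar and the mean as a line, by group. Aqp4 and Fzd1 are lower and Krt23 and Reg4 higher in the mutant groups, and Slc12a2 is higher and Lgr4 lower in the groups with TNFa.

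Markers of dividing and mature cells were read beside these results. Of 15 proliferation genes tested, such as Mki67, Top2a and Mcm2, 0 were called by limma in any of the 4 single comparisons, and 0 to 3 had an unadjusted p under 0.05, against 13.3 to 23.5% of all tested genes. Differences above 0 were found for 14 of the 15 for TNFa in mutant (52.8% of all tested genes), 11 for TNFa in WT (52.9%), 13 for genotype with TNFa (49.4%) and 13 for genotype without it (47.7%). On average over genotypes Birc5, which encodes survivin, was 0.18 log2 higher with TNFa (adjusted p = 0.0483), a call lost under 15 of 24 alternatives. Their medians were 0.10 log2 for TNFa in mutant, 0.066 log2 for TNFa in WT, 0.091 log2 for genotype with TNFa and 0.062 log2 without it. Their summed signal ran from 13.34 to 13.52 log2 in mutant + TNFa, 13.24 to 13.45 in mutant, 13.19 to 13.46 in WT + TNFa and 13.15 to 13.37 in WT. Of 11 differentiated colonocyte markers tested, 4 were lower and 1 higher in mutant on average, among them the carcinoembryonic antigen family genes Ceacam20 (-0.38 log2, adjusted p = 0.00484) and Ceacam1 (-0.16 log2, adjusted p = 0.00745) on the lower side and the chloride exchanger Slc26a3 (0.19 log2, adjusted p = 0.0093) on the higher. In this average 3.36% of all tested genes were called lower and 2.52% higher. With TNFa 2 of the 11 rose and 0 fell in mutant (1 at an unadjusted p under 0.05), and 3 rose and 1 fell in WT. Of all tested genes 3.51% rose and 2.47% fell in mutant, and 5.03% rose and 5.75% fell in WT. Guca2b and Guca2a, which encode uroguanylin and guanylin, rose in both genotypes, by 1.27 and 1.00 log2 in mutant and by 1.65 and 1.06 log2 in WT. Slc37a2, a sugar phosphate transporter, fell by 0.50 log2 in WT (limma adjusted p = 0.00976), and Aqp8, a water channel, fell by 0.19 log2 on average over genotypes (adjusted p = 0.0331, lost without 10 of 16 arrays in turn). The summed colonocyte signal was 15.20 to 15.25 log2 in mutant + TNFa against 15.02 to 15.13 in mutant, and 15.25 to 15.32 in WT + TNFa against 15.06 to 15.14 in WT. The part of these shifts in the results for the 8 genes was not tested.

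Reg4, a lectin of the deep crypt secretory cells that neighbour stem cells in the mouse colon, was the only one of the 11766 tested genes called in the difference of TNFa effects. It read 11.49 ± 0.11 log2 in mutant + TNFa, 11.56 ± 0.088 in mutant, 10.23 ± 0.023 in WT + TNFa and 10.98 ± 0.12 in WT (SD, n = 4). The mutant was 1.26 log2 higher with TNFa and 0.58 log2 higher without it (limma adjusted p = 2.6e-08 and 0.000106). The TNFa effects differed by 0.69 log2 (SE 0.10, adjusted p = 0.0344), a call lost on leaving out any of 11 of the 16 arrays (adjusted p up to 0.138), without the filter on dim genes (0.0564) and with the replicate block (0.193). Of the 9 goblet and deep crypt markers tested, only Reg4 was called between genotypes. Mutant minus WT was above 0 for 5 of the 9 with TNFa (49.4% of all tested genes) and for 2 of the 9 without it (47.7%). The medians of the 9 were 0.026 and -0.049 log2. The summed signal of the 9 markers was 14.92 to 14.95 log2 in mutant + TNFa, 14.94 to 15.03 in mutant, 14.84 to 14.91 in WT + TNFa and 14.99 to 15.02 in WT. Its part in the genotype differences of Lgr5, Smoc2, Lrig1 and Axin2 was not tested. Of 5 enteroendocrine and tuft markers tested, 3 were higher in mutant than in WT with TNFa, where 1.56% of all tested genes rose. These were Tph1, which makes serotonin (0.80 log2), Pyy, a gut hormone (0.37 log2), and Chga, a granule protein (0.27 log2). The call of Chga was lost without array 2 or 3 of mutant + TNFa (adjusted p = 0.052 and 0.0518). Without TNFa 0 of the 5 were called between genotypes, and 1 had a difference above 0 (47.7% of all tested genes). In WT 2 of the 5, Chga and Pyy, fell with TNFa, where 5.75% of all tested genes fell. That call of Pyy was lost without 4 of 16 arrays in turn. Tph1 alone of the 5 rose with TNFa, and did so in both genotypes. Of all tested genes 3.51% rose in mutant and 5.03% in WT. Under the alternatives the rise of Tph1 was 1.64 to 1.88 log2 in mutant and 0.89 to 0.97 log2 in WT, and it stayed called. Of the 8 colon epithelium markers the transcription factor Cdx2 was called, 0.52 log2 lower in mutant without TNFa (limma adjusted p = 0.0158, lost without array 1 or 2 of WT or array 1 of mutant, up to 0.0602). Of the immune cell markers 2 of 6 were tested, and Lyz2, a lysozyme of macrophages, was 1.25 log2 higher in mutant than in WT with TNFa (adjusted p = 0.00177), while Ptprc was above the dim range on 2 of 16 arrays and Cd3e and Itgam on none.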

How the data were processed

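RNA of 16 mouse colon organoid samples was amplified, labelled with biotin and measured on 1 Affymetrix array each. The deposited log2 values came from RMA in Affymetrix Expression Console, per the submitters' processing notes. RMA corrects background and makes the distributions of all arrays alike, so a shift shared by most genes would not show. Tool versions, array design and build, not given in the sources used here, are left unstated. Groups were taken from sample titles and characteristics, as the treatment protocol of every sample names TNFa.

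Of 19825 probe sets, 18851 carried 1 symbol, 974 none and 0 several. Each of 18850 genes was read from its probe set with the highest mean. Genes above their array's 40th percentile on at least 4 arrays were tested (11766), and 7084 dim ones were set aside. limma 3.58.1 under R 4.3.3 fitted 4 group means to all 16 arrays, and 7 comparisons were adjusted by Benjamini-Hochberg, with adjusted p under 0.05 called. Errors are SE of the fit or SD between 4 arrays, intervals cover 95%, and the number of arrays limits the precision. The other genes named are called members of 19 further lists, at most 4 per list and comparison, plus genes a statement turns on, and, of the 3 tested genes best correlated with each of the 8 genes, the closest. The 10 genes and the lists were chosen with earlier results of these data known.

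The fit was tested on simulated data of 11766 genes, 200 of them changed. It called 99 to 100% of those changed by 1 log2, and of those changed by 0.5 log2 it called 79 to 92% in the 4 single comparisons and 64% in the difference of TNFa effects. Alternatives covered the filter, probe set choice, variance model, array weights, 2 rescalings, the groups fitted, replicate numbers as blocks and each array left out.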

Additional observations from a re-analysis of the deposited data

Results flagged for a closer look

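Single arrays far from the other 3 of their group were looked for in 47 genes, the 8 genes and the called list members, over 188 gene and group combinations, and 8 were found, where chance alone gives about 1 in 20. On array 2 of WT + TNFa, Lgr5 was high at 8.14 log2 (the others 7.73 to 7.78), Znrf3 low at 7.62 (8.34 to 8.39) and Lrp6 low at 10.17 (10.42 to 10.45). The other 5 were Tspan8 on array 3 of mutant + TNFa at 12.13 log2, Car4 on array 2 of mutant + TNFa at 9.96, Muc2 on array 4 of mutant + TNFa at 12.16, Fzd8 on array 4 of mutant at 5.75 and Fzd8 on array 2 of WT at 6.78. Fzd8 was above the dim range on the 4 arrays of WT and on no array of the other groups.

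Among the same genes the TNFa effects of Znrf3 and Reg4 were flagged as differing between genotypes, the first without a call. They were not alone in this. Of the enteroendocrine and tuft markers 4 of 5 tested, and of the immune cell markers 1 of 2, had an unadjusted p under 0.05 for this difference in limma. None of these was called, and 7.27% of all tested genes had such a p. For Znrf3 every mutant array with TNFa was above, and every WT array with TNFa below, all untreated arrays of its genotype. The difference of the effects was 0.47 log2 and not called by limma (adjusted p = 0.561), with 0.28 to 0.54 log2 and adjusted p from 0.221 to 0.759 under the alternatives. For Reg4 the effects differed by 0.69 log2 (limma adjusted p = 0.0344), between -0.068 log2 in mutant and -0.75 log2 in WT.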

How the results depend on the processing

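Under the alternatives the calls of Cd44 and Sox9 with TNFa in both genotypes, and of Smoc2 with TNFa and of Smoc2, Lrig1 and Axin2 in the averaged genotype comparison, kept their direction and stayed called. With array weights 1095 genes were called for TNFa in mutant (704 as reported), 443 for genotype without TNFa (292, with 1 of the 8 genes in place of 0), 617 for genotype with TNFa (317, with 4 of the 8 genes in place of 2) and 1072 for the averaged genotype comparison (692). With only the groups compared in the fit, 720 genes were called for TNFa in WT (1269 as reported) and 185 for genotype with TNFa, with 1 of the 8 genes, as was also 1 without the filter. For the difference of TNFa effects 1 gene was called as reported, against 3 with the stricter filter, 5 with a variance trend and robust fit, 3 with array weights and 0 with the replicate block. Array weights called Ascl2 for TNFa in mutant (adjusted p = 0.045), Lgr5 for TNFa in WT (0.0140), for TNFa on average (0.0173) and for genotype with TNFa (0.0038), Znrf3 for genotype with TNFa (0.0135, and 0.0313 with the variance trend) and Axin2 for genotype without TNFa (0.0486). Direction turned only for values near 0 that were not called. These were Znrf3 for genotype without TNFa (0.0065 log2 after repeated quantile normalization), Lrig1 (-0.0020, array weights) and Smoc2 (-0.021 with array weights, -0.011 with centring on array medians and -0.0045 with quantile normalization) for TNFa on average, and Cd44 for genotype on average (-0.0061, array weights). The cause was not tested. Centring moved the median of all genes by -0.0234 to 0.0136 log2 and quantile normalization by -0.0156 to 0.0115 log2. Of 110 calls of list genes none turned, and 30 were lost under at least 1 alternative.

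With 1 array left out at a time, genes called for genotype with TNFa ran from 192 to 340, with 1 to 4 of the 8 genes, and those for the difference of TNFa effects from 0 to 4. Of the 8 genes 0 to 1 were called for genotype without TNFa. Values whose sign turned were, for genotype without TNFa, Cd44 (-0.021 to 0.18 log2), Sox9 (-0.015 to 0.075) and Znrf3 (-0.047 to 0.0045), for genotype with TNFa Cd44 (-0.11 to 0.025), for genotype on average Cd44 (-0.031 to 0.069), and for TNFa on average Lrig1 (-0.0025 to 0.038), Smoc2 (-0.025 to 0.033) and Znrf3 (-0.13 to 0.000785).

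Replicate numbers are shared by the groups. Deviations of same-numbered arrays correlated at r from -0.30 to 0.0088 between WT + TNFa and WT, and from -0.091 to 0.19 between mutant + TNFa and mutant. Between genotypes r ran from -0.10 to 0.25 with TNFa, the highest for number 2, and from -0.31 to -0.035 without it. As most of these were near or below 0, the numbers were not taken as pairs. With the replicate block 500 genes were called for TNFa in mutant, 876 for TNFa in WT, 246 for genotype without TNFa, 262 for genotype with TNFa, 1364 for TNFa on average, 593 for genotype on average and 0 for the difference. Among the 8 genes the block added Ascl2 for TNFa in mutant (0.45 log2, adjusted p = 0.0206) and for genotype on average (0.30 log2, adjusted p = 0.0334). The stricter filter left no value for Ascl2, and fitting only the groups compared was not run where a comparison uses all 4 groups. In the simulated data 64% of changes of 0.5 log2 were called for the difference of TNFa effects.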
